A study of Mus musculus with 6 samples.

Results

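The NKG2, CD94, NK1.1 and KLRG1 receptors are surface receptors by which natural killer (NK) cells and some T cells read other cells. The set holds 10 genes of the 32286 in the count tables, chosen by name: Klrc1, Klrc2, Klrd1, Klrk1, Klrg1, Klrb1a, Klrb1b, Klrb1c, Klre1 and Ncr1. Their unique molecular identifiers (UMIs, 1 per captured transcript) were summed in 5 cell classes, and no gene of the set was used to choose a cell. The classes were NK cells, type 1 innate lymphoid cells (ILC1), natural killer T (NKT) cells, gamma-delta T cells and CD8 T cells.

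The labels describe tumor-bearing mouse livers at day 30 as the source of the cells, in 3 groups. In the AAV-sgBaat group the animals had received an adeno-associated virus (AAV) with a guide RNA against Baat, a liver enzyme that conjugates bile acids. In the AAV-sgSCR group the AAV carried the guide labelled SCR in place of it, and mock animals were naive and mock-infected, with a title that calls their tissue native liver. Every group is a single mRNA library, described as a pool of 3 tumor samples. Differences between groups therefore have no replicate check. The labels do not settle whether mock livers bore tumors, so in comparisons with mock the AAV and a tumor cannot be told apart. T cells and all other CD45hi cells were sorted apart and joined before loading, so class sizes also carry the sort. The labels give no strain, sex, age or tumor model, and do not say which cell type the AAV reached.

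NK cells kill by balancing such receptors. CD94, the product of Klrd1, pairs with NKG2A (Klrc1) to inhibit or with NKG2C (Klrc2) to activate, and both pairs read Qa-1, a non-classical major histocompatibility complex molecule. NKG2D (Klrk1) binds stress-induced ligands, KLRG1 reads cadherins, and KLRE1 pairs with KLRI1 or KLRI2. Of the NKR-P1 family (Klrb1a, Klrb1b, Klrb1c), the Klrb1b product reads the lectin Clr-b. NKp46, the product of Ncr1, is an immunoglobulin-like receptor and not a lectin, and marks NK cells and ILC1. In the liver, ILC1 and NK cells both carry NK1.1 and NKp46. Activated CD8 T cells can take up several of these receptors.

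The libraries differed in depth and in cell mixture. Total gene UMIs were 48359443 in AAV-sgBaat, 62570529 in AAV-sgSCR and 32005400 in mock, and 7094, 7332 and 6068 barcodes in that order passed the filter. The share of T cell barcodes that also carried another lineage's markers was 52.9% in AAV-sgBaat, 35.1% in AAV-sgSCR and 14.4% in mock, and those barcodes were left out. Between 10 and 16 cell barcodes were shared by each pair of libraries. Baat itself, a hepatocyte gene, had 1 UMI in AAV-sgBaat, 15 UMIs in AAV-sgSCR and 5 UMIs in mock among the barcodes that passed, too few to check the guide in immune cells. In B cells, which should lack these receptors, Klrd1 stood at 5.27 CPM (counts per 1e+06 gene UMIs of the class) in AAV-sgBaat, 13.9 CPM in AAV-sgSCR and 13.03 CPM in mock. Klrc1 there was at 0.879 CPM, 1.69 CPM and 3.46 CPM in the same order. At 1500 UMIs per cell, 18 of 2822 mock B cells held 3 or more of the 10 genes, against 1 of 287 in AAV-sgBaat and 0 of 640 in AAV-sgSCR, so the B cell level is used as a measured background whose source was not tested.

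The classes held 68 NK cells, 82 ILC1, 15 NKT cells, 40 gamma-delta T cells and 458 CD8 T cells in AAV-sgBaat. AAV-sgSCR held 90, 115, 45, 68 and 1523 cells in that order, and mock held 384, 88, 173, 75 and 485. NK cells made up 45.3% (exact binomial 95% interval 37.2 to 53.7) of NK cells plus ILC1 of AAV-sgBaat, 43.9% (37.0 to 51.0) in AAV-sgSCR and 81.4% (77.5 to 84.8) in mock. Genes that the gates did not use bore the names out in part. Tyrobp, the adaptor DAP12 of innate lymphocytes, was found in 100% of AAV-sgBaat NK cells, 100% of AAV-sgSCR NK cells and 99.5% of mock NK cells. ILC1 carried it in 86.6%, 86.1% and 96.6% of cells in the same order. Trac, a T cell receptor gene, was seen in 4.41% of NK cells and 3.66% of ILC1 in AAV-sgBaat, 6.67% and 4.35% in AAV-sgSCR, and 5.47% and 7.95% in mock. Trbc2, another T cell receptor gene, was seen far more often, in 50% of NK cells and 72.0% of ILC1 in AAV-sgBaat, 52.2% and 65.2% in AAV-sgSCR, and 40.6% and 75% in mock. In B cells its share was 24.1%, 14.8% and 2.21% in that order.

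Of the 10 genes, 9 lie on mouse chromosome 6, and Ncr1 lies on chromosome 7 (mm10, the same assembly as GRCm38). Klrc1 spans chr6:129666015-129682852, Klrc2 chr6:129649602-129660737, Klrd1 chr6:129588092-129598775, Klrk1 chr6:129610323-129623903 and Klre1 chr6:129559365-129585828, a run of neighbouring genes. Klrb1a lies at chr6:128609227-128622934, Klrb1b at chr6:128813706-128826315, Klrb1c at chr6:128778485-128788641 and Klrg1 at chr6:122270596-122282833. Ncr1 lies at chr7:4337715-4345184.

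Promoters of 8 of the 10 genes, each 250 bases before to 50 bases after the first listed start, were taken from RefSeq (GRCm38.p6). They are shown for the 3 genes called between the AAV libraries in NK cells or CD90.1-dominant CD8 T cells below (Klrc1, Klre1, Klrb1a). Klrb1b is shown too, as the gene whose highest class was ILC1 in all 3 libraries. Capitals mark TGTGGT or its complement ACCACA, the core read by RUNX factors, which act in NK and CD8 T cells. For Klrc1 and Klre1 this start lies inside the span of the gene.
Klrc1 promoter, chr6:129678924-129679223, minus strand: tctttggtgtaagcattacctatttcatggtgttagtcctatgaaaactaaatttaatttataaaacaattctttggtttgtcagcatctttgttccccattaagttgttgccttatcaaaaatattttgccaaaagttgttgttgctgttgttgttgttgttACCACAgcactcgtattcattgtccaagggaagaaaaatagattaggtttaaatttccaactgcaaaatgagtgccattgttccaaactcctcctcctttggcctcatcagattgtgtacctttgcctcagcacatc
Klre1 promoter, chr6:129577963-129578262, plus strand: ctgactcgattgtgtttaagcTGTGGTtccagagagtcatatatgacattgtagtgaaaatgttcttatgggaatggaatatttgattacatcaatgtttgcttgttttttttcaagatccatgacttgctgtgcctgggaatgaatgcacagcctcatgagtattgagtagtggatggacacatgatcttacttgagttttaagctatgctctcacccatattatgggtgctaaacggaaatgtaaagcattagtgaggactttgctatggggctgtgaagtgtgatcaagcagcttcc
Klrb1a promoter, chr6:128622885-128623184, minus strand: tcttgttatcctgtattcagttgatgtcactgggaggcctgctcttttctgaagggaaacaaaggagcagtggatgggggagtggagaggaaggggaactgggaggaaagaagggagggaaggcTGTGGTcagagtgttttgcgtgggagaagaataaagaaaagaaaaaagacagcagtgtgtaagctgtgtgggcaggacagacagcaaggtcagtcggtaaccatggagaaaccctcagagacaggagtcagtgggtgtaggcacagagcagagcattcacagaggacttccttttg
Klrb1b promoter, chr6:128826266-128826565, minus strand: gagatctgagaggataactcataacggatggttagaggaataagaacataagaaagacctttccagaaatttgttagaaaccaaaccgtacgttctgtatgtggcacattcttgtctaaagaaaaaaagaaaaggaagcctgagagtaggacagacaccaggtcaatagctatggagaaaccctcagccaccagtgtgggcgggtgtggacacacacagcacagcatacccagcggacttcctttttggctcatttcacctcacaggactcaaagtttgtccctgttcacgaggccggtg
The RUNX core began 87 bases upstream of the start in Klrc1, 229 bases in Klre1 and 126 bases in Klrb1a, and these letters are not in the Klrb1b window. On either strand, 7 of the 8 promoters held it, against 16.9% of the first promoters of 27025 mouse genes. The 8 are not independent, since the Klrb1a and Klrb1c windows are nearly alike around the match. The T-box core GTGTGA was in 2 of the 8 (Klre1 and Ncr1) against 14.4%, and the ETS core GGAAGT in 3 of the 8 (the Klrb1 genes) against 24.1%. The AP-1 site TGACTCA was in 2 of the 8 (Klrc2 and Klrk1) against 5.17%, and the STAT pattern TTCNNNGAA in 0 of the 8 against 8.47%. A match says only that the letters are there.

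Among the 5 classes, all 10 genes were highest in NK cells or ILC1 in every library. Klrk1, Klrb1a, Klrb1c, Klre1 and Ncr1 had the order NK cells, then ILC1, in all 3 libraries. Klrb1b, an inhibitory receptor for the Clr-b ligand, had ILC1 first and NK cells second in all 3. Klrd1 and Klrg1 were highest in NK cells, while Klrc1 changed its first place, with ILC1 first in AAV-sgBaat and mock and NK cells first in AAV-sgSCR. Klrc2, the activating partner of CD94, was highest in NK cells in AAV-sgBaat and AAV-sgSCR and in ILC1 in mock. The NK and ILC1 intervals overlapped for Klrb1a in all 3 libraries.

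**Figure D1:**
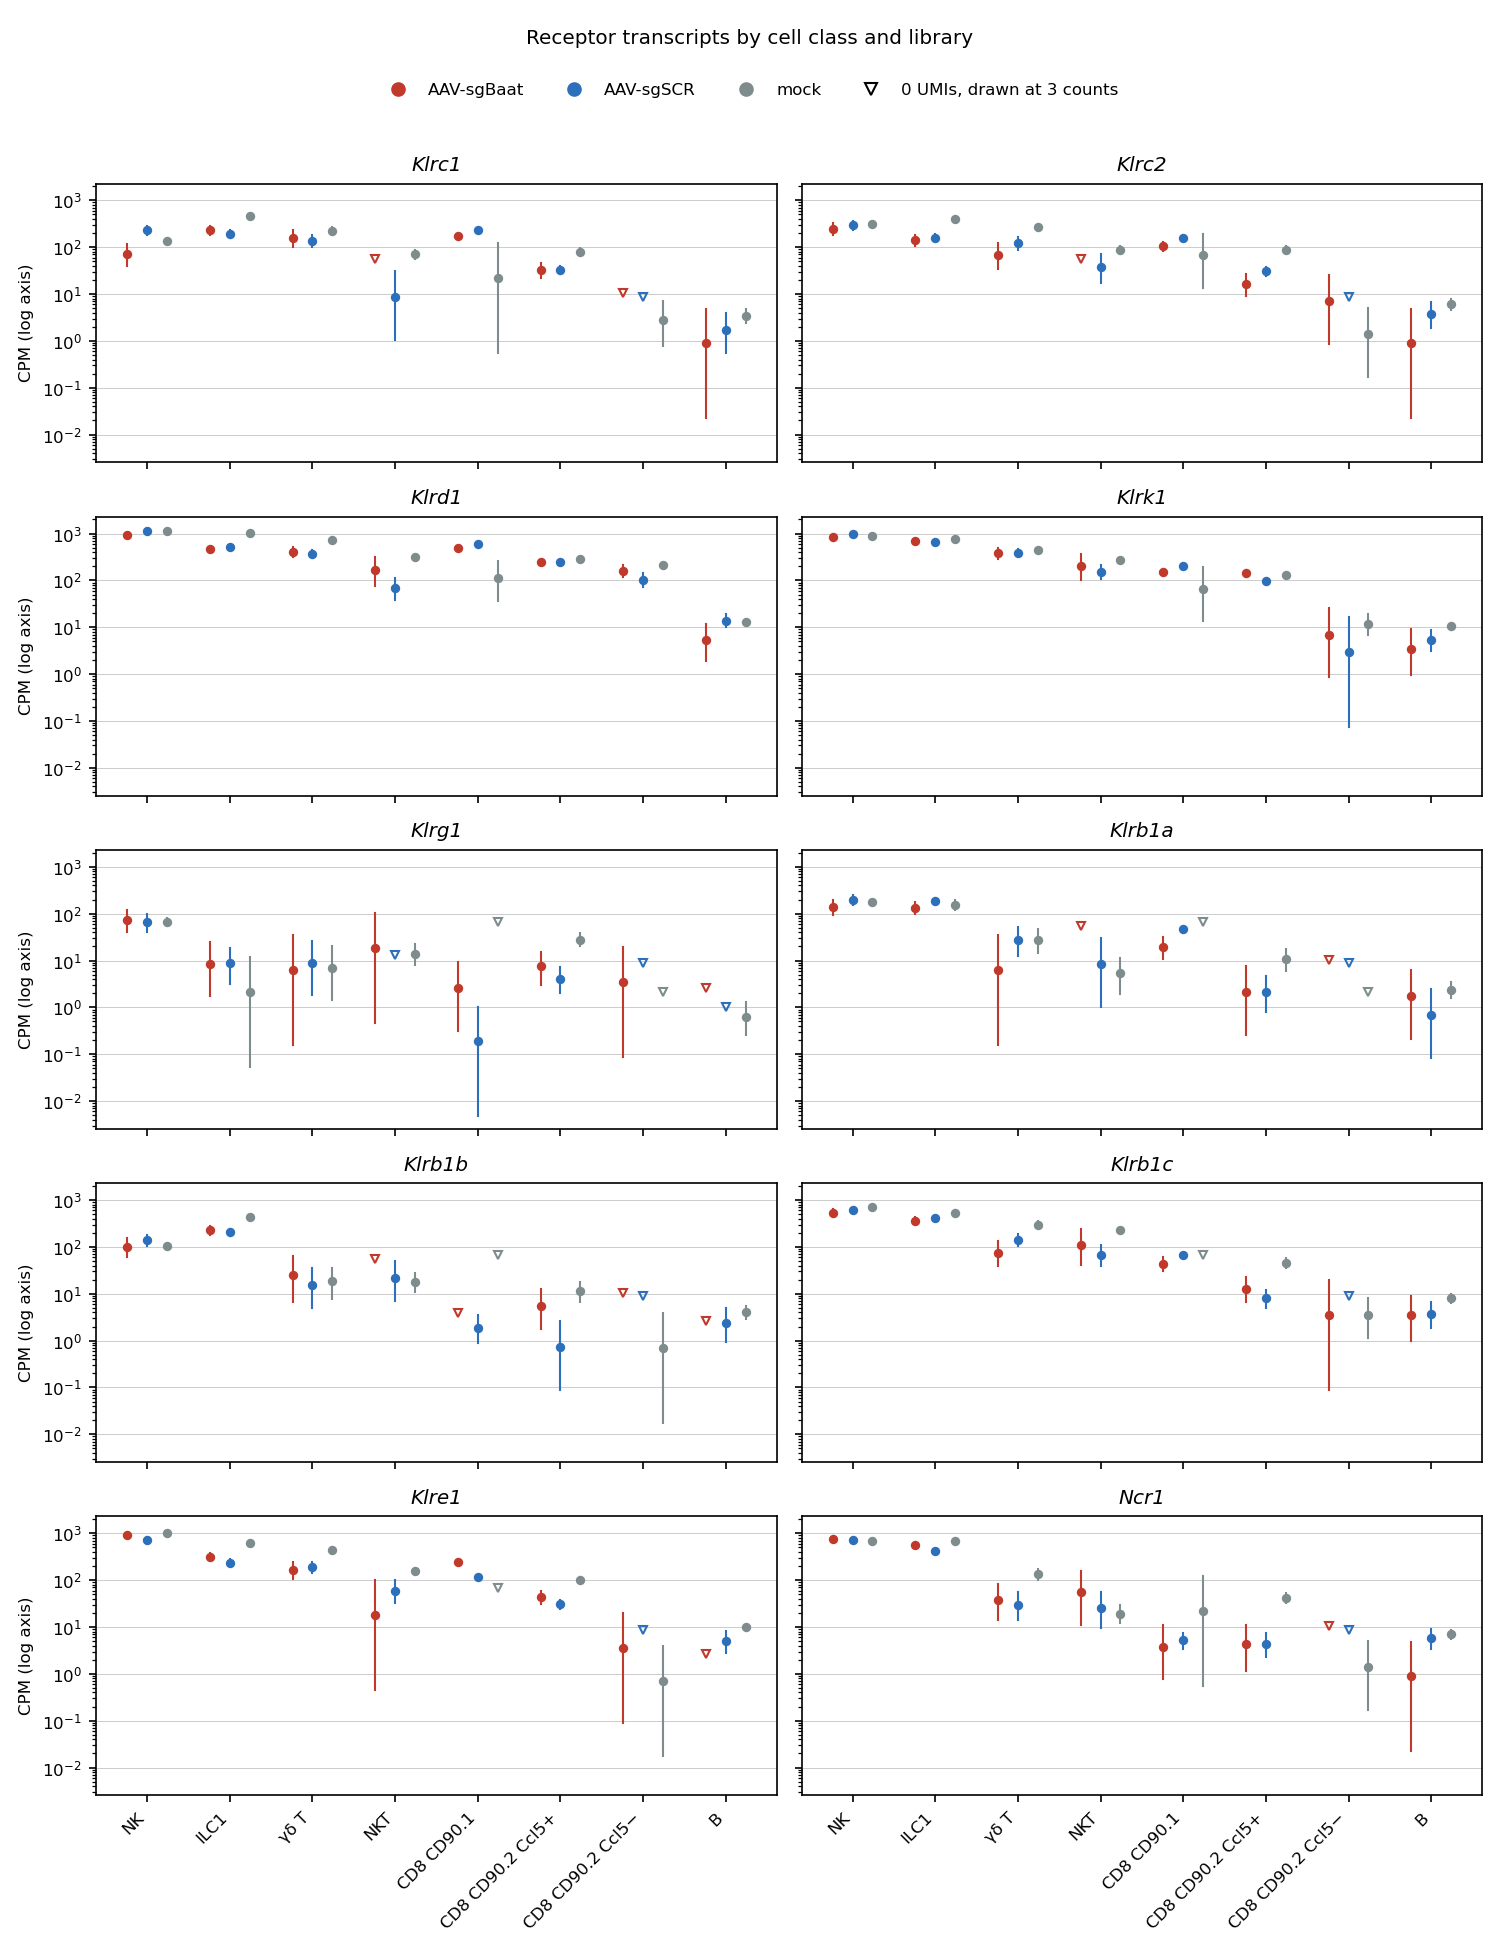
Level of each of the 10 genes, in CPM on a log axis, in 8 cell classes and 3 libraries, with 1 point for each class and library. Bars are exact 95% Poisson intervals for counting error only, and open triangles are sums of 0 drawn at 3 counts. NK cells and ILC1 carried every gene of the set except Klrg1 at 71.5 CPM or more, and Klrg1 in ILC1 was at or under 8.66 CPM.

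Klrg1 separated NK cells from ILC1 most. It stood at 71.5 CPM in AAV-sgBaat NK cells and 8.44 CPM in AAV-sgBaat ILC1, which is 8.48-fold higher in NK cells on 15 and 3 UMIs. The same contrast was 65.2 CPM against 8.66 CPM in AAV-sgSCR (7.53-fold) and 66.4 CPM against 2.16 CPM in mock (30.8-fold, on 1 UMI in ILC1). KLRG1 is an inhibitory receptor of mature NK cells and effector T cells.

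Klrb1b ran the other way in each library. NK cells had 100.1 CPM against 225 CPM in ILC1 in AAV-sgBaat, 139 CPM against 208 CPM in AAV-sgSCR, and 104 CPM against 425 CPM in mock. It was 2.25-fold, 1.496-fold and 4.09-fold lower in NK cells than in ILC1 in that order, and each interval stayed below a log2 ratio of 0. Klre1 was higher in NK cells, by 2.94-fold in AAV-sgBaat, 3.06-fold in AAV-sgSCR and 1.61-fold in mock.

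Klrc1, the NKG2A chain, did not keep 1 direction. In NK cells it was 3.22-fold lower than in ILC1 in AAV-sgBaat and 3.49-fold lower in mock. In AAV-sgSCR it stood at 229.6 CPM in NK cells against 192 CPM in ILC1, a log2 ratio of 0.26 (-0.16 to 0.67). NK and ILC1 levels were thus not told apart for Klrc1 in AAV-sgSCR.

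In NK cells, the set moved little between libraries apart from Klrc1. Below, a gene was called where its CPM differed at least 2-fold, and genes with under 20 UMIs over both libraries were not called. Intervals on ratios are exact 95% intervals for counting error and leave out the spread between animals. Of the 10 genes, 1 was called in AAV-sgBaat over AAV-sgSCR NK cells, against 7.05% of the 3476 genes measured there (4.34% lower). The median log2 ratio was -0.23 for the set and -0.01 for all genes.

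The called gene was Klrc1, which inhibits through CD94. It had 15 UMIs in AAV-sgBaat NK cells (71.5 CPM), 81 UMIs in AAV-sgSCR (229.6 CPM) and 210 UMIs in mock (135 CPM). AAV-sgSCR was the high library and AAV-sgBaat the low one. The interval of the AAV-sgSCR level, 182 to 285 CPM, lay above those of AAV-sgBaat (40.0 to 118 CPM) and mock (117.7 to 155 CPM), which touched each other. The log2 ratio of AAV-sgBaat over AAV-sgSCR was -1.68 (-2.58 to -0.88), or 3.21-fold lower. A Klrc1 UMI was seen in 17.6% of AAV-sgBaat NK cells (9.47 to 28.8), 40% of AAV-sgSCR NK cells (29.8 to 50.9) and 26.0% of mock NK cells. At 1500 UMIs per cell the shares were 9.84% (3.70 to 20.2), 25.9% (16.8 to 36.9) and 17.2% in the same order. The intervals of the AAV-sgBaat and AAV-sgSCR shares overlapped at that depth. The share in AAV-sgBaat B cells, as background, was 0.310% at a median depth of 2226 UMIs, against 2741 UMIs in NK cells.

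CD94 itself moved less. Klrd1 had 911 CPM in AAV-sgBaat NK cells, 1111 CPM in AAV-sgSCR and 1145 CPM in mock, with a log2 ratio of -0.29 (-0.54 to -0.03) of AAV-sgBaat over AAV-sgSCR. Klrc2, the activating chain for the same partner, had 248 CPM, 292 CPM and 316 CPM in that order, and its ratio of -0.24 (-0.75 to 0.26) included 0. The 3 levels of Klrc2 overlapped in their intervals.

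Klre1, whose product pairs with KLRI1 or KLRI2, had the opposite sign. It was at 925 CPM in AAV-sgBaat NK cells, 729 CPM in AAV-sgSCR and 1019 CPM in mock. The log2 ratio of AAV-sgBaat over AAV-sgSCR was 0.34 (0.07 to 0.62), under 2-fold. Its partner Klri2 stood at 277 CPM in AAV-sgBaat NK cells, 232 CPM in AAV-sgSCR and 302 CPM in mock.

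The remaining genes of the set differed by less than 2-fold between libraries in NK cells. Klrk1 stood at 829.7 CPM in AAV-sgBaat, 964 CPM in AAV-sgSCR and 874 CPM in mock. Ncr1 was at 758 CPM, 731 CPM and 694 CPM in the same order, and Klrg1 at 71.5 CPM, 65.2 CPM and 66.4 CPM. Klrb1a (138 CPM, 198 CPM, 177 CPM), Klrb1b (100.1 CPM, 139 CPM, 104 CPM) and Klrb1c (539 CPM, 626 CPM, 723 CPM) had intervals on the AAV-sgBaat over AAV-sgSCR ratio that included 0.

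Against mock, 0 of the 10 genes were called in NK cells of either AAV library, where 19.2% of all genes were called for AAV-sgBaat and 15.1% for AAV-sgSCR. Klrc1 came nearest. For AAV-sgBaat its log2 ratio to mock was -0.92 (-1.78 to -0.17), and -1.24 with every cell at 1500 UMIs, on 6 and 88 UMIs, which would be a call. For AAV-sgSCR the ratio was 0.76 (0.37 to 1.14). The AAV libraries lay on opposite sides of mock, with mock shared by both comparisons. The median log2 ratio of all genes was -0.23 for AAV-sgBaat and -0.19 for AAV-sgSCR, and that of the set -0.23 and 0.02.

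**Figure D2:**
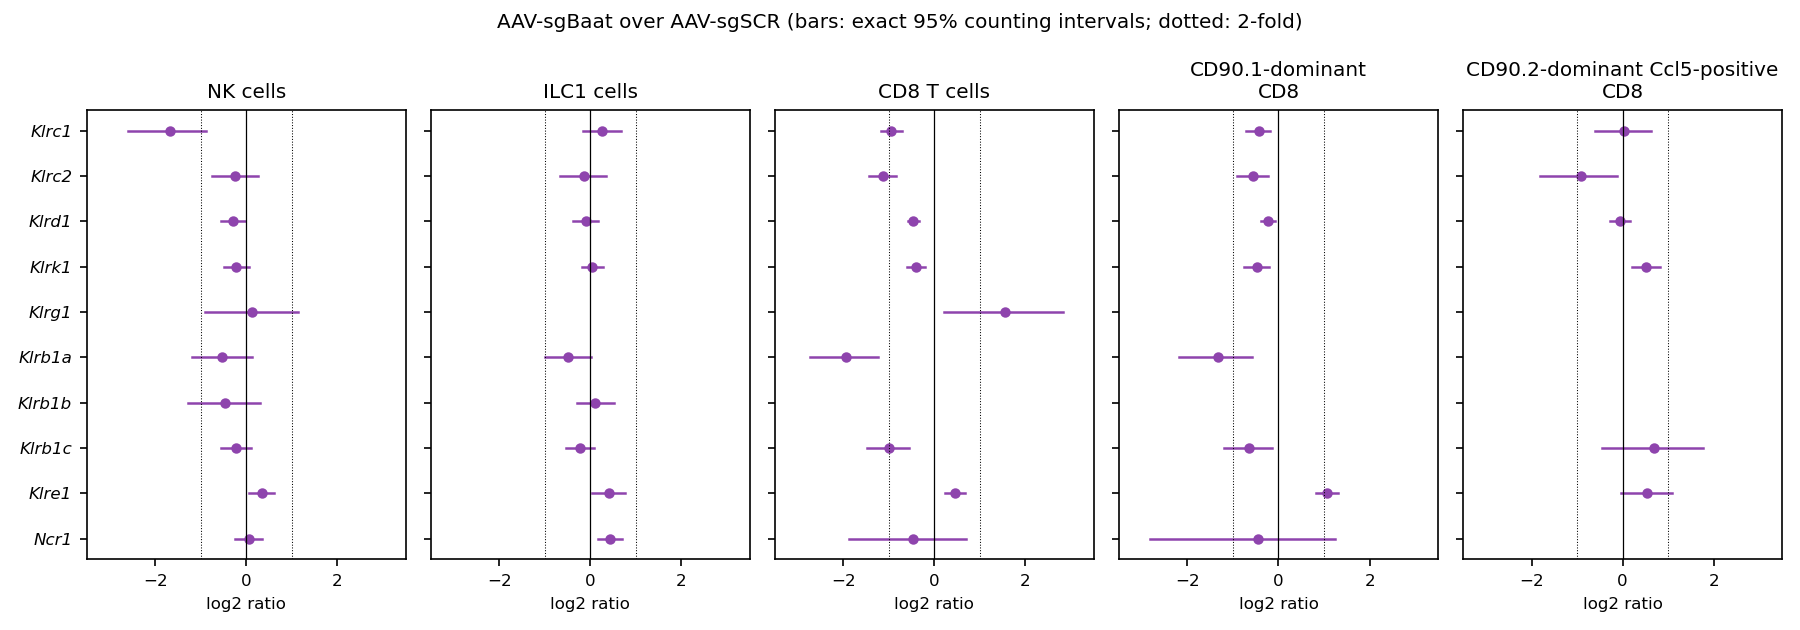
Log2 ratio of CPM, AAV-sgBaat over AAV-sgSCR, of the 10 genes in NK cells, ILC1, all CD8 T cells and 2 subsets of CD8 T cells. Bars are exact 95% intervals for counting error. Klrc1 in NK cells lies at -1.68, and Klre1 in CD90.1-dominant CD8 T cells at 1.07.

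In ILC1 the AAV libraries were close to each other and apart from mock. No gene of the set was called between the AAV libraries (0 of 9, against 7.66% of all genes), and 2 genes had an interval above 0. These were Klre1, with 315 CPM in AAV-sgBaat and 238 CPM in AAV-sgSCR (log2 ratio 0.40, 0.04 to 0.76), and Ncr1, with 557 CPM and 411 CPM (0.44, 0.17 to 0.70). Klrg1 had 3, 6 and 1 UMIs in AAV-sgBaat, AAV-sgSCR and mock ILC1 and was not measured there. With mixed-lineage barcodes kept, 4 of 9 genes were called higher in AAV-sgBaat over AAV-sgSCR ILC1 (Klrc1 1.36, Klrb1b 1.04, Klre1 1.40 and Ncr1 1.52), so this comparison depends on leaving them out.

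Against mock, 4 of 9 measured genes were lower in AAV-sgBaat ILC1, where 20.1% of all genes were called either way and 14.1% lower. The set's median log2 ratio was -0.92 and that of all genes -0.20. In AAV-sgSCR over mock ILC1, 5 of 9 were lower, where 17% of all genes were called either way and 10.6% lower, with medians of -1.03 and -0.16. Genes of the NKG2 and CD94 cluster made up most of both counts. The comparisons share the mock library. Both counts moved with the processing. For AAV-sgBaat 2 genes were called at 1500 UMIs per cell, 2 with a stricter gate, 2 with a Tyrobp UMI asked of each cell, and 1 (Klrc2, -1.36) with mitochondrial and ribosomal UMIs left out of the total. For AAV-sgSCR 3 genes, Klrc1, Klrc2 and Klre1, were called at 1500 UMIs, with the stricter gate, without mitochondrial and ribosomal UMIs and with median-ratio scaling. All 9 were called with mixed-lineage barcodes kept, a setting that raised AAV-sgSCR ILC1 from 115 to 271 barcodes and mock ILC1 from 88 to 118.

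Klrc2 was at 141 CPM in AAV-sgBaat ILC1, 156 CPM in AAV-sgSCR and 408 CPM in mock. For AAV-sgBaat its log2 ratio to mock was -1.54 (-2.02 to -1.08). For AAV-sgSCR the ratio was -1.39 (-1.74 to -1.04). Klrc1 was at 231 CPM, 192 CPM and 472 CPM in that order, with log2 ratios to mock of -1.03 (-1.42 to -0.66) and -1.30 (-1.62 to -0.98). For both NKG2 chains mock was the high library, and neither AAV library's interval reached it.

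Klrd1 was at 475 CPM in AAV-sgBaat ILC1, 509 CPM in AAV-sgSCR and 1041 CPM in mock, with log2 ratios to mock of -1.13 (-1.39 to -0.88) and -1.03 (-1.23 to -0.83). Klre1 was at 315 CPM, 238 CPM and 634 CPM, with log2 ratios of -1.01 (-1.34 to -0.69) and -1.41 (-1.70 to -1.13). Mock was again the high library for both. Klrb1b, at 225 CPM, 208 CPM and 425 CPM, was called in AAV-sgSCR alone (-1.03, -1.35 to -0.71), with -0.92 (-1.31 to -0.54) in AAV-sgBaat.

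NKG2D was not called in either AAV library. Klrk1 was at 683 CPM in AAV-sgBaat ILC1, 661 CPM in AAV-sgSCR and 785 CPM in mock, with log2 ratios to mock of -0.20 (-0.44 to 0.04) and -0.25 (-0.45 to -0.05). Klrb1a stood at 132 CPM, 185 CPM and 155 CPM, and Klrb1c, which encodes NK1.1, at 363 CPM, 421 CPM and 530.4 CPM. Ncr1 stood at 557 CPM, 411 CPM and 688 CPM, with a log2 ratio to mock of -0.74 (-0.98 to -0.51) in AAV-sgSCR. With mixed-lineage barcodes kept, AAV-sgSCR over mock ILC1 was past 2-fold for these 4 genes as well. The log2 ratios were -1.53 for Klrk1, -1.36 for Klrb1a, -1.88 for Klrb1c and -2.24 for Ncr1. That setting raised ILC1 from 115 to 271 barcodes in AAV-sgSCR and from 88 to 118 in mock. In AAV-sgSCR the UMIs went from 458 to 608 for Klrk1 and from 285 to 318 for Ncr1. The part of the added barcodes in these ratios was not tested.

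Cells of the ILC1 gate with none of the 10 genes were also more frequent in the AAV libraries. At 1500 UMIs per cell they were 13.2% in AAV-sgBaat, 14.04% in AAV-sgSCR and 4.55% in mock (10 of 76, 16 of 114 and 4 of 88 cells). Tyrobp was not called, at 1735 CPM, 1306 CPM and 2122 CPM in that order. Cxcr6, a residency gene used in the gate, was in 29.3%, 37.4% and 47.7% of ILC1. The part of these differences in the receptor result was not tested. Among ILC1 with a Tyrobp UMI the log2 ratios of AAV-sgSCR over mock were -1.23 for Klrc1, -1.34 for Klrc2, -0.92 for Klrd1 and -1.29 for Klre1. Those of AAV-sgBaat over mock were -0.94, -1.41, -1.003 and -0.91 in the same order, so Klrc1 and Klre1 in AAV-sgBaat and Klrd1 in AAV-sgSCR were no longer called. With every cell at 1500 UMIs, AAV-sgBaat over mock kept Klrc2 (-1.48) and Klre1 (-1.01), with Klrc1 at -0.98 and Klrd1 at -0.87. AAV-sgSCR over mock kept Klrc1 (-1.02), Klrc2 (-1.20) and Klre1 (-1.13), with Klrd1 at -0.77 and Klrb1b at -0.68.

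**Figure D3:**
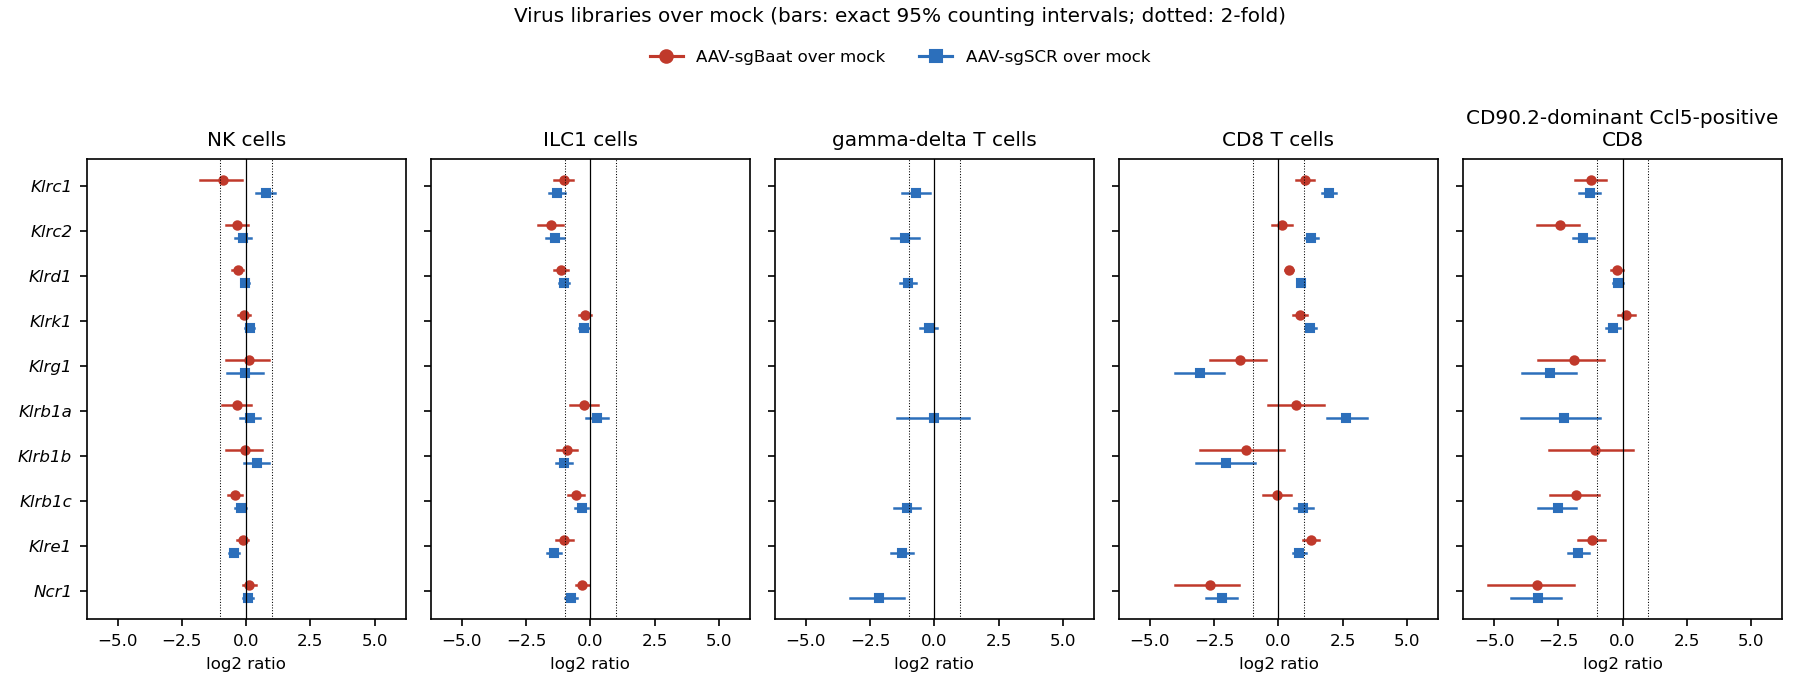
Log2 ratio of CPM of each AAV library over mock for the 10 genes in NK cells, ILC1, gamma-delta T cells, CD8 T cells and CD90.2-dominant Ccl5-positive CD8 T cells. Circles are AAV-sgBaat, squares AAV-sgSCR, bars exact 95% intervals for counting error, and dotted lines 2-fold. Klrc2 in ILC1 lies at -1.54 and -1.39, and Klrc1 in all CD8 T cells at 1.02 and 1.96.

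Gamma-delta T cells, unconventional T cells with an innate-like receptor set, carried several of the same genes. Klrd1 was at 414 CPM in AAV-sgBaat, 368 CPM in AAV-sgSCR and 741 CPM in mock. Klre1 was at 163 CPM, 187 CPM and 449 CPM, and Klrb1c at 75.2 CPM, 142 CPM and 293 CPM in the same order. Mock was the high library for all 3 genes.

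Between the AAV libraries 0 of 6 measured genes were called in gamma-delta T cells, against 8.56% of all genes. In AAV-sgSCR over mock, 5 of 8 were lower, where 13.6% of all genes were called either way and 9.45% lower. They were Klrc2 (log2 ratio -1.14, -1.70 to -0.61), Klrd1 (-1.01, -1.32 to -0.70), Klrb1c (-1.05, -1.56 to -0.56), Klre1 (-1.27, -1.70 to -0.85) and Ncr1 (-2.17, -3.30 to -1.19). Klrk1 was at 391.97 CPM in AAV-sgSCR and 456 CPM in mock (-0.22, -0.55 to 0.11). At 1500 UMIs per cell 3 of 7 measured genes were called (Klrc2, Klrb1c and Ncr1), and 3 of 8 without mitochondrial and ribosomal UMIs in the total (Klrc2, Klre1 and Ncr1). AAV-sgBaat held 40 gamma-delta T cells, under the 50 asked for in comparisons with mock.

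Makeup of the gamma-delta gate moved with these values. Tyrobp was in 32.5% of gamma-delta T cells in AAV-sgBaat, 27.9% in AAV-sgSCR and 65.3% in mock. At 1500 UMIs, 45.9% of the cells in AAV-sgBaat, 41.2% in AAV-sgSCR and 14.7% in mock had none of the 10 genes. The part of the makeup in the receptor result was not tested.

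NKT cells were too few for more than a description, and their gate asked for only 1 UMI of Zbtb16 or Trav11. Of 3 measured genes 1 was called in AAV-sgBaat over AAV-sgSCR, against 14.8% of all genes (5.99% higher): Klrd1, with 9 UMIs (164 CPM) in AAV-sgBaat, 16 UMIs (68.4 CPM) in AAV-sgSCR and 353 UMIs (311 CPM) in mock. Its log2 ratio of 1.26 had an interval of -0.10 to 2.53, which includes 0. Klrb1c, the NK1.1 gene by which NKT cells were first known, was at 109 CPM, 68.4 CPM and 229 CPM in that order. Klrk1 stood at 200.5 CPM, 154 CPM and 272 CPM.

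CD8 T cells were not 1 population. The antibody tags for CD90.1 and CD90.2, both alleles of Thy-1, split them. CD90.1-dominant cells were 37.3% of AAV-sgBaat CD8 T cells (32.9 to 41.9), 61.8% of AAV-sgSCR CD8 T cells (59.3 to 64.2) and 2.27% of mock CD8 T cells (1.14 to 4.02). CD90.2-dominant Ccl5-positive cells, which carry an effector chemokine, were 45.2%, 31.6% and 41.9% in that order, and CD90.2-dominant Ccl5-negative cells 12.2%, 3.48% and 49.5%. The labels name 1 antibody for each antibody sample, the count tables hold 3 tags in every library, and no label says which cells carried CD90.1. The other CD8 T cells lay below 100 tag counts or had 1 Ccl5 UMI.

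Within each AAV library, Klrc1, Klrc2, Klrd1, Klre1, Klrb1a and Klrb1c were at higher levels in CD90.1-dominant cells than in CD90.2-dominant Ccl5-positive cells. Klrc1 was at 169 CPM in AAV-sgBaat CD90.1-dominant cells against 33.2 CPM in CD90.2-dominant Ccl5-positive cells of the same library, a 5.10-fold excess. In AAV-sgSCR it was at 229 CPM against 32.5 CPM, 7.03-fold. Klrc2 was 6.50-fold higher in AAV-sgBaat and 5.07-fold higher in AAV-sgSCR, Klrd1 2.06-fold and 2.34-fold, Klre1 5.68-fold and 3.90-fold, and Klrb1c 3.37-fold and 8.56-fold. Klrb1a was 8.92-fold higher in AAV-sgBaat, on 15 and 2 UMIs, and 22.1-fold higher in AAV-sgSCR, on 257 and 6 UMIs. Klrk1 was level in AAV-sgBaat, at 150.04 CPM against 142 CPM, and 2.10-fold higher in AAV-sgSCR, at 208 CPM against 99.0 CPM. Ncr1 was at or under 5.23 CPM in both subsets of both AAV libraries, near the level in AAV-sgSCR B cells of 5.76 CPM.

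Over all CD8 T cells, 4 of 9 measured genes were called in AAV-sgBaat over AAV-sgSCR, against 7.37% of all genes (1.35% higher, 6.03% lower). Klrb1a had 17 UMIs (7.96 CPM) in AAV-sgBaat, 267 UMIs (30.5 CPM) in AAV-sgSCR and 16 UMIs (4.999 CPM) in mock, with a log2 ratio of -1.94 (-2.74 to -1.23). Klrc2, at 47.8 CPM, 104.5 CPM and 43.1 CPM, had -1.13 (-1.44 to -0.83), and Klrb1c, at 22.0 CPM, 44.2 CPM and 22.8 CPM, had -1.004 (-1.47 to -0.57). AAV-sgSCR was the high library for these 3 genes. Klrg1, on 10, 14 and 42 UMIs, had 4.68 CPM, 1.60 CPM and 13.1 CPM and a log2 ratio of 1.55 (0.22 to 2.83). Its mock level was the highest.

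Klrc1 fell just short of the call over all CD8 T cells, and Klre1 ran the other way. Klrc1 had 79.1 CPM in AAV-sgBaat, 152 CPM in AAV-sgSCR and 39.1 CPM in mock, with a log2 ratio of -0.94 (-1.18 to -0.71) of AAV-sgBaat over AAV-sgSCR. Klre1 had 113 CPM, 82.5 CPM and 47.2 CPM, with 0.45 (0.24 to 0.66). AAV-sgSCR led for the first gene and AAV-sgBaat for the second.

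Within CD90.1-dominant cells, 2 of 8 measured genes were called in AAV-sgBaat over AAV-sgSCR, against 9.95% of all genes (2.83% higher, 7.12% lower). Klre1 was higher: 196 UMIs and 249 CPM in 171 AAV-sgBaat cells, against 634 UMIs and 118 CPM in 941 AAV-sgSCR cells. Its log2 ratio was 1.07 (0.83 to 1.31), or 2.10-fold. The share of cells with a Klre1 UMI was 49.7% in AAV-sgBaat and 28.8% in AAV-sgSCR, and 31.2% and 12.4% at 1500 UMIs per cell. With mixed-lineage barcodes kept the log2 ratio of Klre1 was 0.87, under 2-fold. The 11 mock cells of this subset had 0 Klre1 UMIs.

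Klrb1a was lower in the same cells, at 19.1 CPM in AAV-sgBaat and 48.0 CPM in AAV-sgSCR (log2 ratio -1.33, -2.19 to -0.58), and at -0.84 with every cell at 1500 UMIs, on 6 and 63 UMIs. Klrc1 (169 CPM against 229 CPM, -0.44, -0.70 to -0.18), Klrc2 (104 CPM against 154 CPM, -0.56, -0.91 to -0.23) and Klrk1 (150.04 CPM against 208 CPM, -0.47, -0.76 to -0.20) were lower by less than 2-fold with intervals below 0. So were Klrb1c (43.2 CPM against 68.0 CPM, -0.65) and Klrd1 (502 CPM against 590 CPM, -0.23, -0.39 to -0.08). Klre1 was thus the single gene of the 8 measured with a ratio above 0.

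Other receptor genes moved beside Klre1 in these cells. Of 9 Ly49 (Klra) genes, receptors for classical major histocompatibility molecules in mice, 6 were measured. All 6 were called higher in AAV-sgBaat, against 2.83% of all genes. Their median log2 ratio was 1.62 against -0.02 for all genes. Some rest on few UMIs, with 13 and 28 for Klra1 and 15 and 23 for Klra5 in AAV-sgBaat and AAV-sgSCR. Klra3 was at 113 CPM in AAV-sgBaat and 49.1 CPM in AAV-sgSCR (1.203, 0.84 to 1.56), and Klra7 at 83.9 CPM and 28.0 CPM (1.58, 1.14 to 2.01). Tyrobp was at 199.6 CPM and 82.0 CPM (1.28), in 19.9% and 18.0% of cells. The part of these genes in the Klre1 result was not tested.

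Within CD90.2-dominant Ccl5-positive cells, 0 of 6 measured genes were called between the AAV libraries, against 6.11% of all genes. Klrk1 was at 142 CPM in AAV-sgBaat and 99.0 CPM in AAV-sgSCR, a log2 ratio of 0.52 (0.21 to 0.83). Klrc2 was at 16.0 CPM and 30.4 CPM (-0.92, -1.82 to -0.12). Klrd1 stood at 244 CPM and 252 CPM (-0.05, -0.27 to 0.17).

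Set against mock, Klrc1 and Klre1 had opposite signs in all CD8 T cells and in this subset. Over all CD8 T cells 5 of 10 genes were called in AAV-sgBaat, 2 higher and 3 lower, against 11.9% of all genes (6.43% higher, 5.44% lower). In AAV-sgSCR 7 of 10 were called, 4 higher and 3 lower, against 17.2% of all genes (12.5% higher, 4.69% lower). Klrc1 was higher in both, with log2 ratios of 1.02 (0.68 to 1.36) and 1.96 (1.70 to 2.24), and Klre1 was called in AAV-sgBaat (1.26, 0.96 to 1.56). With mixed-lineage barcodes kept, AAV-sgBaat over mock was 0.91 for Klrc1 and 0.99 for Klre1, neither called, and at 1500 UMIs per cell it was 0.68 and 1.099. AAV-sgSCR was also higher for Klrc2 (1.28), Klrk1 (1.24) and Klrb1a (2.61, 1.88 to 3.43). Klrg1 was lower for AAV-sgBaat (-1.49, -2.65 to -0.47) and for AAV-sgSCR (-3.04, -4.03 to -2.14), as was Ncr1 (-2.68 and -2.20). Klrb1b was lower in both, at -1.26 (-3.05 to 0.22) on 5 UMIs in AAV-sgBaat and -2.04 (-3.22 to -0.90) on 12 UMIs in AAV-sgSCR, against 18 UMIs in mock. At 1500 UMIs per cell, AAV-sgSCR over mock had 5 higher and 0 lower of 7 measured genes.

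Among CD90.2-dominant Ccl5-positive CD8 T cells, 7 of 9 measured genes were lower than mock in AAV-sgBaat (9.96% of all genes called, 7.6% lower) and 7 of 9 in AAV-sgSCR (7.52% called, 4.12% lower). At 1500 UMIs per cell, 6 genes were measured in each and 3 and 4 were called lower in that order. Klrc1 was at 33.2 CPM in AAV-sgBaat, 32.5 CPM in AAV-sgSCR and 78.5 CPM in mock, with log2 ratios to mock of -1.24 (-1.86 to -0.66) and -1.27 (-1.68 to -0.86). Klrc2 was at 16.0 CPM, 30.4 CPM and 87.9 CPM, with -2.45 (-3.33 to -1.68) and -1.53 (-1.95 to -1.13). Mock was the high library for both.

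Ncr1 was at 4.28 CPM, 4.34 CPM and 42.6 CPM in these cells (-3.32 and -3.30), Klrb1c at 12.8 CPM, 7.95 CPM and 45.3 CPM (-1.82 and -2.51), and Klrg1 at 7.49 CPM, 3.98 CPM and 28.0 CPM (-1.90 and -2.81). Klre1 stood at 43.8 CPM, 30.4 CPM and 99.8 CPM (-1.19 and -1.72). Klrb1b was called in AAV-sgBaat on 5 against 17 UMIs (-1.08, -2.87 to 0.42), and Klrb1a in AAV-sgSCR on 6 against 16 UMIs (-2.30, -3.94 to -0.87). Klrd1 (244 CPM, 252 CPM, 286 CPM) and Klrk1 (142 CPM, 99.0 CPM, 128 CPM) were not called in either comparison.

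Mock cells of this subset also differed in state. Eomes, a transcription factor of NK and memory CD8 T cells, was in 14.5% of the subset's cells in AAV-sgBaat, 15.1% in AAV-sgSCR and 39.4% in mock. Tyrobp was at 42.8 CPM, 38.3 CPM and 118 CPM in that order. Cells with 3 or more genes of the set were 2.97%, 2.49% and 11.3% at 1500 UMIs per cell (6 of 202, 12 of 481 and 23 of 203 cells). The part of these differences in the receptor result was not tested. CD90.2-dominant Ccl5-negative cells carried Klrd1 at 161 CPM, 102 CPM and 212 CPM, and 74.5%, 84.9% and 73.3% of them had none of the set at 1500 UMIs. Klrd1 was their 1 measured gene. It was not called in AAV-sgBaat over AAV-sgSCR (7.06% of all genes called) or over mock (18.7%), and was lower in AAV-sgSCR over mock (-1.05, -1.60 to -0.54), where 15.4% of all genes were called and 11.1% lower.

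**Figure D4:**
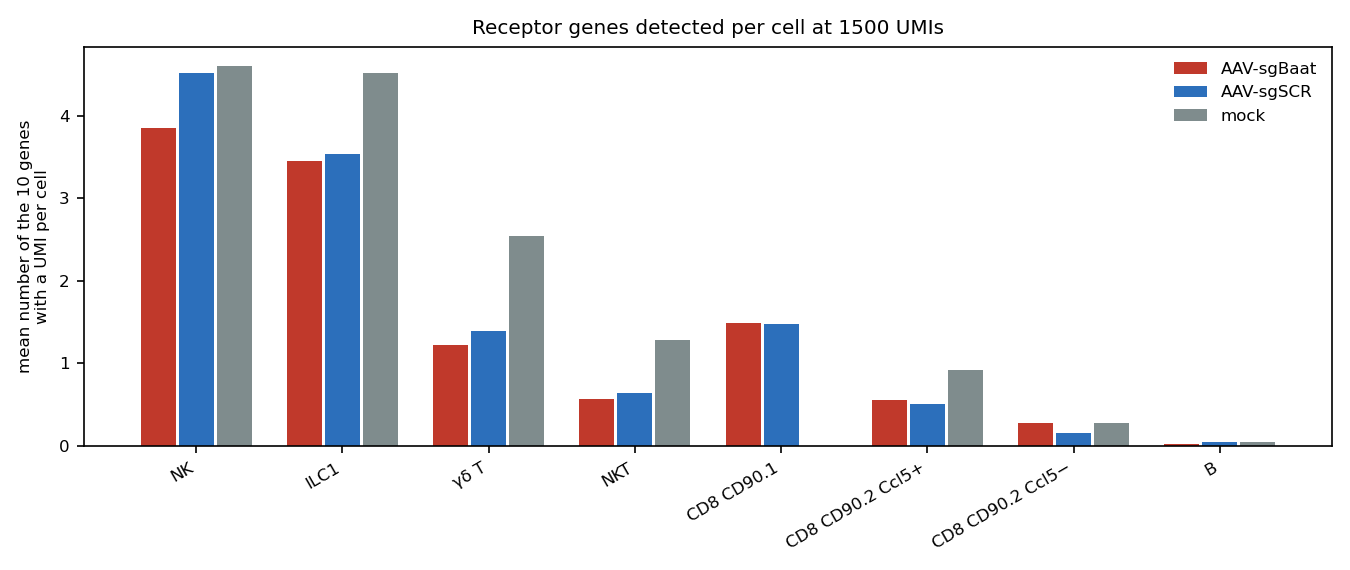
Mean number of the 10 genes with at least 1 UMI per cell, with each cell thinned to 1500 UMIs, by class and library. NK cells lie at 3.85 in AAV-sgBaat, 4.52 in AAV-sgSCR and 4.61 in mock, ILC1 at 3.45, 3.54 and 4.52, and B cells at or under 0.0484.

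Klrd1 had a higher share in ILC1 with a Klrc1 or Klrc2 UMI than in ILC1 without one in each library, as a description of single cells. At 1500 UMIs, Klrd1 was found in 61.9% of AAV-sgBaat ILC1 with Klrc1 and 41.8% of those without, in 64.5% and 49.4% in AAV-sgSCR, and in 72.1% and 64.4% in mock. With and without Klrc2, Klrd1 was in 66.7% and 42.6% in AAV-sgBaat, 79.3% and 44.7% in AAV-sgSCR, and 81.1% and 58.8% in mock. The contrast was not particular to the NKG2 chains that pair with CD94. With and without Klre1, Klrd1 was in 68% and 37.3% of ILC1 in AAV-sgBaat, 75% and 45.1% in AAV-sgSCR, and 72.9% and 62.5% in mock. With and without Klrk1 the shares were 56% and 30.8%, 62.3% and 40%, and 68.3% and 67.9% in that order. In AAV-sgSCR NK cells the shares with and without Klrc1 were 71.4% and 71.7%. In mock NK cells they were 83.1% and 80.5%. In AAV-sgBaat NK cells 6 cells had Klrc1, and 5 of them had Klrd1. With and without Klrc2, Klrd1 was in 76.2% and 65% of AAV-sgBaat NK cells, 82.1% and 66.0% in AAV-sgSCR, and 80.4% and 81.3% in mock. The AAV-sgBaat ILC1 shares rest on 21 cells with Klrc1 and 15 cells with Klrc2.

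Adaptors and partners of the receptors were fixed as a list of 10 genes. In NK cells 6 were measured and 0 were called in any of the 3 comparisons. Hcst, the adaptor DAP10 of NKG2D, was at 701 CPM in AAV-sgBaat, 536 CPM in AAV-sgSCR and 658 CPM in mock NK cells. In ILC1 over mock, 1 of 5 was lower in AAV-sgBaat (14.1% of all genes lower) and 1 of 6 in AAV-sgSCR (10.6%), shares near those of all genes, and in both cases the gene was Klri2. This activating partner of KLRE1 was at 36.6 CPM in AAV-sgBaat ILC1, 27.4 CPM in AAV-sgSCR and 127 CPM in mock, with log2 ratios to mock of -1.80 (-2.79 to -0.92) and -2.21 (-3.04 to -1.45). In gamma-delta T cells of AAV-sgSCR over mock, 2 of 5 were lower (9.45% of all genes), Tyrobp (-1.56) and Fcer1g (-1.06). Over all CD8 T cells, Fcer1g was called higher than mock in AAV-sgBaat (2.01) and AAV-sgSCR (1.76). Klrb1f was lower in AAV-sgBaat (-1.79) and Klrb1 higher in AAV-sgSCR (2.05). Within CD90.2-dominant Ccl5-positive cells, Fcer1g was lower in AAV-sgSCR over mock (-1.35).

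Signalling genes behind the receptors, a list of 12, were lower than mock in ILC1 for 6 of 10 measured in AAV-sgBaat, against 14.1% of all genes, and 2 of 11 in AAV-sgSCR, against 10.6%. Zap70, a kinase that binds phosphorylated adaptors, was at 30.9 CPM, 60.6 CPM and 129 CPM in AAV-sgBaat, AAV-sgSCR and mock ILC1 (log2 ratios to mock -2.06, -3.14 to -1.12, and -1.09, -1.70 to -0.50). Lcp2, the scaffold SLP-76, was at 70.3 CPM, 63.5 CPM and 177 CPM (-1.33 and -1.48). Ptpn11 (-1.14), Inpp5d (-1.31), Syk (-1.20) and Fyn (-1.12) were also called lower in AAV-sgBaat, with intervals that included 0 for Ptpn11 and Syk. In NK cells of AAV-sgBaat over AAV-sgSCR, 2 of 12 were called lower, against 4.34% of all genes: Ptpn11 (-1.19) and Sh2d1b1 (-1.12), both with intervals that included 0. Over all CD8 T cells, 1 of 11 was lower in AAV-sgBaat over AAV-sgSCR, against 6.03% of all genes: Ptpn11 (-1.05). In AAV-sgSCR over mock, 2 of 11 were higher there, against 12.5% of all genes: Ptpn11 (1.81) and Sh2d2a (1.35).

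Of a list of 13 ligand genes, 4 or 5 were measured in NK cells and 6 or 7 in CD8 T cells, depending on the comparison. H2-T23, which encodes Qa-1, was at 205 CPM in AAV-sgBaat NK cells, 209.8 CPM in AAV-sgSCR and 219 CPM in mock. In CD8 T cells it was at 167 CPM, 199 CPM and 216 CPM in the same order. Clec2d, which encodes the Clr-b ligand of the inhibitory NKR-P1 receptor, was at 234 CPM, 218 CPM and 170.2 CPM in NK cells in that order. Ulbp1, the NKG2D ligand MULT1, was at 12.2 CPM, 10.2 CPM and 5.31 CPM in CD8 T cells, called higher in AAV-sgBaat over mock (1.197). H60b, another NKG2D ligand, had 1, 1 and 21 UMIs in CD8 T cells in the same order. Cdh1, the E-cadherin read by KLRG1, had 17, 51 and 4 UMIs there, with log2 ratios to mock of 2.67 and 2.22.

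Outside the 5 classes, genes of the set stood above the B cell background in dendritic cells and regulatory T cells. Klrd1 was at 247 CPM in AAV-sgBaat plasmacytoid dendritic cells, 269 CPM in AAV-sgSCR and 199 CPM in mock. In type 2 dendritic cells (cDC2) it was at 393 CPM, 338 CPM and 233 CPM, with Klrc1 and Klrc2 at 0 UMIs in all 3 libraries. CD94 RNA was thus present there with neither NKG2 chain counted, and 0 UMIs allow up to 18.7 CPM in AAV-sgBaat, 6.59 CPM in AAV-sgSCR and 10.9 CPM in mock. Klrk1 was at 103 CPM, 149 CPM and 146 CPM in type 1 dendritic cells (cDC1), on 10, 132 and 11 cells. Klrg1 was at 105 CPM in 19 regulatory T cells of AAV-sgSCR (8 UMIs) and 137 CPM in 29 of mock (29 UMIs), with 1 UMI in the 7 of AAV-sgBaat. These levels were above those of NK cells in the same libraries, 65.2 CPM and 66.4 CPM. The regulatory T cell and NK intervals overlapped in AAV-sgSCR (45.2 to 206 CPM and 41.3 to 97.8 CPM) and not in mock (91.8 to 197 CPM and 54.2 to 80.6 CPM).

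**Figure D5:**
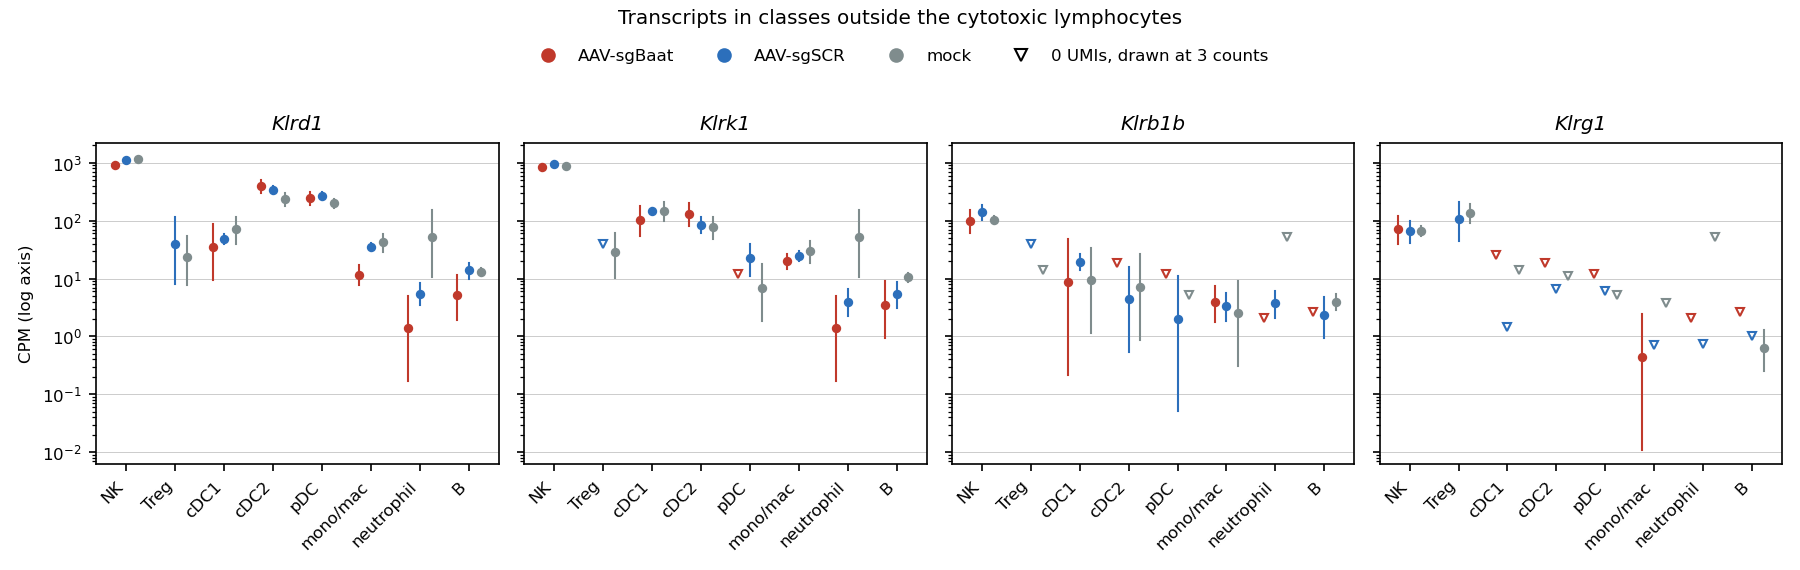
Level in CPM, on a log axis, of Klrd1, Klrk1, Klrb1b and Klrg1 in NK cells, regulatory T cells, cDC1, cDC2, plasmacytoid dendritic cells, monocytes and macrophages, neutrophils and B cells, by library. Bars are exact 95% Poisson intervals for counting error, and libraries with under 10 cells of a class are not drawn. Klrd1 in cDC2 lies at 393 CPM, 338 CPM and 233 CPM, above B cells at 5.27 CPM, 13.9 CPM and 13.03 CPM.

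Genes with the most similar pattern were named over 35 sums (class by library), by Pearson correlation of log2(CPM + 1). The points share libraries and depth, and this is a description. Among the set, Klrc2 and Klre1 were the closest pair (r = 0.96) and Klrd1 and Klrb1b the most distant (r = 0.54). Outside it, Chsy1 was closest to Klrc1 (0.89), Klrk1 (0.89) and Klre1 (0.92), and Samd3 to Klrc2 (0.91). Klrb1f was closest to Klrb1b (0.87) and Ncr1 (0.90), Cpne7 to Klrb1c (0.89), Spry2 to Klrb1a (0.87) and Rnaset2b to Klrd1 (0.87). Tbx21, which was used in the NK and ILC1 gates, was closest to Klrg1 (0.86).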

How the data were processed

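Gene and antibody-tag UMI counts were deposited by the authors as 1 filtered cell-by-gene matrix for each of 3 mRNA libraries, made with Cell Ranger 6.0.1 per the file headers and the mm10 build per the submitters' processing notes. The other 3 of the 6 samples are antibody samples, whose tags were read from the same matrices. Barcodes with at least 500 genes, at least 1000 gene UMIs and at most 10% mitochondrial UMIs were kept. Barcodes with markers of a further lineage were left out. Doublets were otherwise treated only in an alternative, since Scrublet's automatic threshold called 1 barcode in AAV-sgBaat, 1 in AAV-sgSCR and 258 in mock.

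Classes were rebuilt from marker UMIs, so names may differ from those of the study. NK cells and ILC1 had at least 5 UMIs of an innate panel and no Cd3 or Cd8 UMI. NK cells also had at least 2 UMIs of a panel with Eomes, Itga2 and Ly49 genes. ILC1 had at least 2 UMIs of a panel with Cxcr6, Itga1 and Il7r and no NK panel UMI. Gamma-delta T cells had at least 2 Trdc UMIs, NKT cells at least 1 UMI of Zbtb16 or Trav11, and CD8 T cells Cd8b1 without Cd4. The members and gene lists were chosen with earlier results of these data known. All 10 genes are named, and further genes come from those lists. 1 listed gene, Klrh1, was not in the tables.

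Counts were summed by class and library and given as CPM of the class's gene UMIs. With 1 library a group there is no test, and a gene was called at 2-fold with at least 20 UMIs over both libraries. Comparisons with mock needed 50 cells in both libraries. Intervals are exact at 95% (Poisson, conditional binomial for ratios, Clopper-Pearson for shares) and cover counting error only. A count of 0 allows 3 counts. Thinning took each cell to 1500 UMIs. Calls and intervals were tried only on simulated Poisson counts, the model that the intervals assume. The planted changes were larger than 2-fold and lay in genes above the 20 UMI minimum, so recovery near either limit was not checked. Spread between cells or animals was not simulated. Levels of different genes were not compared. Alternatives changed depth, doublets, mixed-lineage barcodes, gates, the total, scaling and count minimums. Python 3.11.15, numpy 2.4.6, scipy 1.17.1, pandas 2.3.3 and scanpy 1.11.5 were used.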

Additional observations from a re-analysis of the deposited data

Results flagged for a closer look

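For 3 genes, cell classes of the same library lay on opposite sides of mock past 2-fold. Each difference between classes was not tested, since a group is 1 library.

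Klrc1 in AAV-sgBaat over mock had a log2 ratio of -1.03 in ILC1 and 1.02 in CD8 T cells. In AAV-sgSCR over mock it was -1.30 in ILC1 and 1.96 in CD8 T cells. Klrc2 in AAV-sgSCR over mock was -1.39 in ILC1, -1.14 in gamma-delta T cells and 1.28 in CD8 T cells. Klre1 in AAV-sgBaat over mock was -1.01 in ILC1 and 1.26 in CD8 T cells. In AAV-sgBaat ILC1, Klrc1 and Klre1 fell under 2-fold with a stricter gate (-0.95 and -0.99). The same held without mitochondrial and ribosomal UMIs in the total (-0.86 and -0.84) and with a Tyrobp UMI asked (-0.94 and -0.91). At 1500 UMIs per cell, Klrc1 was -0.98 in ILC1 and 0.68 in CD8 T cells, and Klre1 -1.01 and 1.099. CD90.1-dominant cells were 37.3% of CD8 T cells in AAV-sgBaat, 61.8% in AAV-sgSCR and 2.27% in mock, and with mixed-lineage barcodes kept the CD8 T cell ratios of AAV-sgBaat over mock were 0.91 for Klrc1 and 0.99 for Klre1, under 2-fold. Within CD90.2-dominant Ccl5-positive CD8 T cells all of these genes had negative ratios to mock.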

How the results depend on the processing

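No paired analysis was possible because each group is 1 library. Over all alternatives, 1206 of 1302 ratios moved by less than their counting interval, 87 moved by more and 9 of the called ones changed sign. That total includes ratios that could not move. The count minimums leave every ratio as it was, and the Cd3 and Tyrobp alternatives change NK cells and ILC1 alone. At 1500 UMIs per cell, 22 of 110 ratios moved by more and 1 changed sign. With mixed-lineage barcodes kept, 29 of 115 moved by more.

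Counts of called genes in each class over mock, and within subsets of CD8 T cells, were put under every alternative after seeing the data. Reported counts stand in brackets. Shares of all genes were given for the main gates alone, so the counts below have none beside them. Between the AAV libraries, with every cell at 1500 UMIs, 2 genes were called in NK cells (1), 1 in ILC1 (0), 0 in NKT cells (1, no gene measured), 1 in CD90.1-dominant (2) and 1 in CD90.2-dominant Ccl5-positive CD8 T cells (0). AAV-sgBaat over mock then had 1 in NK cells (0), 2 in ILC1 (4), 1 in CD8 T cells (5) and 3 in CD90.2-dominant Ccl5-positive cells (7), and 4 summed over classes (9). AAV-sgSCR over mock had 3 in ILC1 (5), 3 in gamma-delta T cells (5), 4 in CD90.2-dominant Ccl5-positive cells (7), and 11 in sum (17).

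With mixed-lineage barcodes kept, 4 were called between the AAV libraries in ILC1, 2 in NKT cells, 1 in CD90.1-dominant and 2 in CD90.2-dominant Ccl5-positive cells. AAV-sgSCR over mock ILC1 had 9, and AAV-sgBaat over mock CD8 T cells 2. A stricter gate gave 2 in AAV-sgBaat and 3 in AAV-sgSCR over mock ILC1, and 1 in CD90.2-dominant Ccl5-positive cells between the AAV libraries. It gave 0 in NKT cells, where no gene was measured. It left 0 NKT cells in AAV-sgBaat, 9 in AAV-sgSCR and 65 in mock. Leaving mitochondrial and ribosomal UMIs out of the total gave 1 in AAV-sgBaat and 3 in AAV-sgSCR over mock ILC1, 3 in gamma-delta T cells and 0 in Ccl5-negative CD8 T cells of AAV-sgSCR over mock (1), and 5 in sum in AAV-sgBaat over mock. Median-ratio scaling gave 3 in AAV-sgSCR over mock ILC1 and 1 in gamma-delta T cells between the AAV libraries (0). A minimum of 50 UMIs gave 0 in NKT cells. A minimum of 3 gave 3 there, 1 each in gamma-delta, CD90.2-dominant Ccl5-positive and Ccl5-negative CD8 T cells between the AAV libraries, and in Ccl5-negative cells 1 in AAV-sgBaat (0) and 2 in AAV-sgSCR over mock. Leaving out the highest Scrublet scores, or barcodes under 2000 UMIs, gave 1 in CD90.2-dominant Ccl5-positive cells between the AAV libraries. A Tyrobp UMI asked of NK cells and ILC1 gave 2 in AAV-sgBaat over mock ILC1. Allowing them 1 Cd3 UMI moved no count by over 1.5 times. Both were chosen after seeing the data.

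Signs changed in CD8 T cells. At 1500 UMIs, Klrb1b in AAV-sgBaat over mock was 0.72. Within CD90.2-dominant Ccl5-positive cells, Klrb1c in AAV-sgBaat over AAV-sgSCR was 0.69. There, AAV-sgBaat over mock was -1.24 for Klrc1 and -1.19 for Klre1, and AAV-sgSCR over mock was -1.27 for Klrc1, -1.53 for Klrc2, -0.38 for Klrk1 and -2.30 for Klrb1a. Within Ccl5-negative cells, Klrk1 in AAV-sgSCR over mock was -2.02, on 1 and 17 UMIs, also under the minimum. These splits change which cells enter, and the cause was otherwise not tested.

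Klrc1 in NK cells of AAV-sgBaat over AAV-sgSCR ranged from -1.91 to -1.43 over 11 alternatives, and Klrc2 in ILC1 from -2.04 to -1.36 in AAV-sgBaat over mock and from -2.80 to -1.17 in AAV-sgSCR over mock. NKT and gamma-delta T cells rest on 15 and 40 cells in AAV-sgBaat.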
